A study of Mus musculus with 9 samples.

Results

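The data described here are the mRNA levels of 10 hepatocyte transporters of bile and sterols, out of 20409 genes named in a liver RNA-seq series of male C57BL/6J mice. The members are grouped by function: the bile acid and organic anion uptake carriers Slc10a1, Slco1a1 and Slco1b2, the canalicular transporters Abcb11, Abcb4, Abcc2, Abcg5 and Abcg8, and the basolateral exporters Abcc3 and Abcc4. Each gene was represented by its RefSeq transcript with the highest total count, and all 10 had at least 211 counts in every library. The feeding part of the study had an ad libitum group, a group whose 16-h fast ran from ZT9 to ZT1, and a group that was refed for 20 h after such a fast. For the circadian part, mice spent 1 week in a light:dark cycle (LD) and then 6 weeks in constant darkness (DD), and livers were taken at 6 circadian times (CT), namely 1, 5, 9, 13, 17 and 21 h. ZT is the time after lights on. When the ad libitum and refed livers were harvested, and the age of the mice, are not stated in the sources used here. The labels give 1 strain and 1 sex for all groups and no genetic change in any.

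Livers were pooled and 1 library was sequenced per condition, so that the 9 libraries are 9 conditions without replicates. Ratios between conditions therefore carry only an exact 95% counting interval, which covers counting error and not the difference between mice, and no p-value. The libraries held 43485652 to 59624294 counts over named genes. Levels are given as CPM, the counts of a gene per 1e+06 counts of its library, after scaling of the 9 libraries by the trimmed mean of M values (TMM). The hepatocyte markers were abundant in every library (summed level of 10 markers, 67470 to 126076 CPM). Of the markers of other organs that express some of these carriers, the summed 6 kidney markers stayed between 0.103 and 0.826 CPM, and of 6 intestine markers only Fabp2 passed 1 CPM in any library, at 12.2 to 154 CPM.

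Hepatocytes take up bile acids from the portal blood at the sinusoidal (basolateral) membrane, mainly through the sodium-dependent carrier NTCP, and secrete them into the bile canaliculus through the bile salt export pump BSEP. Phosphatidylcholine, cholesterol and conjugated organic anions enter bile through separate ABC transporters, and further ABC transporters at the sinusoidal membrane return conjugates and bile acids to the blood. Nuclear receptors that sense bile acids, oxysterols and xenobiotics, FXR among them, are known regulators of many of these genes.

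The libraries themselves differed in ways that touch the transporters. Transcripts of 30 acute phase genes, which liver makes during inflammation, took 27.2% of all counts in the ad libitum library, 16.8% at CT1 and 16.3% at CT17. In the other 6 libraries they took 2.72% to 5.50%. The summed level of 9 neutrophil markers was 1796 CPM in the ad libitum library, 1126 CPM at CT1 and 1266 CPM at CT17, against 3.31 to 34.6 CPM elsewhere. Nearly all of that sum was Lcn2, which is on both lists (1738, 1105 and 1229 CPM), and the other 8 neutrophil markers summed to 57.2, 21.3 and 36.7 CPM in these 3 libraries and to 1.24 to 5.14 CPM in the other 6. The ad libitum, CT1 and CT17 libraries are thus set apart, and the counts of members, the correlations and the companion lists are also given without them.

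Upstream sequence (RefSeq, GRCm38.p6) is shown for Abcb11, the member whose level over the 9 libraries followed none of the others, for Slco1b2, the other member with the same motif, and for the interval between the paired genes Abcg5 and Abcg8. All are written 5′ to 3′. The Abcb11 stretch is chr2:69342617-69342736 on the minus strand and ends at the base before the gene's start, and capitals mark matches to the inverted repeat IR1, the form known to bind FXR with its partner RXR. IR1 was searched as AGGTCA, 1 free base and the reverse complement of AGGTCA, with up to 2 mismatches.
Abcb11 upstream: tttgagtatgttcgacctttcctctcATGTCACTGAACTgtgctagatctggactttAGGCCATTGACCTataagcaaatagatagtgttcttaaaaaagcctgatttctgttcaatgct
Slco1b2 upstream: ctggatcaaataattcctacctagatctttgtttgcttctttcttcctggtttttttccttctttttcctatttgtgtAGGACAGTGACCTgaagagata
Abcg5-Abcg8 interval: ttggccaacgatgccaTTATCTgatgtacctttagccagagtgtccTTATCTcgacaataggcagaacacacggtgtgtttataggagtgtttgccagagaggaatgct
The Slco1b2 stretch is chr6:141629352-141629451 on the plus strand, and its capitals mark the same motif. The third stretch is chr17:84683012-84683120 on the plus strand, and its capitals mark matches on the minus strand to AGATAA, the letters of a GATA site.

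Windows of 300 bases, from 250 before to 50 after the gene's start, were matched for 9 of the 10 members, all but Abcc3. Only the 250 bases before the start were searched, in the members and in all windows alike. The matches and shares below refer to these bases. An IR1 match was in the windows of 2 members and in 0.959% of all 32851 windows. In Abcb11 the nearer match, with 1 mismatch, lay at bases -63 to -51 from the start and the farther, with 2 mismatches, at -94 to -82. In Slco1b2 the match, with 1 mismatch, lay at -88 to -76 from the start of its main transcript. GATA letters were in the windows of Abcg5 and Abcg8 and in 9.99% of all windows. With up to 2 mismatches, a direct repeat of AGGTCA with 1 free base between the copies was found in Slco1a1 (3.24% of windows), and the HNF1 letters, GTTAAT and its reverse complement 1 base apart, in Abcc2 (1.24%). The E-box CACGTG was in Abcc4 (6.02%). A direct repeat of AGGTCA with 4 free bases, with up to 2 mismatches, and the D-box TTATGTAA were in no member's window and in 2.57% and 0.819% of all windows. Both strands were searched, and the AGGTCA motifs share their half-site and can overlap. These matches describe the letters of the searched bases only.

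Per kilobase of transcript, the uptake carriers and the bile salt export pump were the 4 most abundant members in every library but the fasted, where Abcb4 ranked above Abcb11. Slco1b2 ranked first in all 9 libraries at 221 to 508 CPM per kb. Slc10a1 ranged from 107 to 403, Slco1a1 from 57.3 to 230.4 and Abcb11 from 89.5 to 201 CPM per kb. Abcb4, Abcc2 and Abcc3 shared the middle ranks, with 25.4 to 179, 23.99 to 84.0 and 22.6 to 76.2 CPM per kb, and their order changed between libraries. Abcg5 (9.76 to 36.8 CPM per kb) and Abcg8 (6.35 to 29.1 CPM per kb) ranked 8 and 9 in every library, and Abcc4 was last at 0.715 to 1.01 CPM per kb. Lengths are those of the GENCODE models, and the model of Abcc2 runs beyond the RefSeq gene's end, which makes its level per kb a low estimate.

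**Figure D1:**
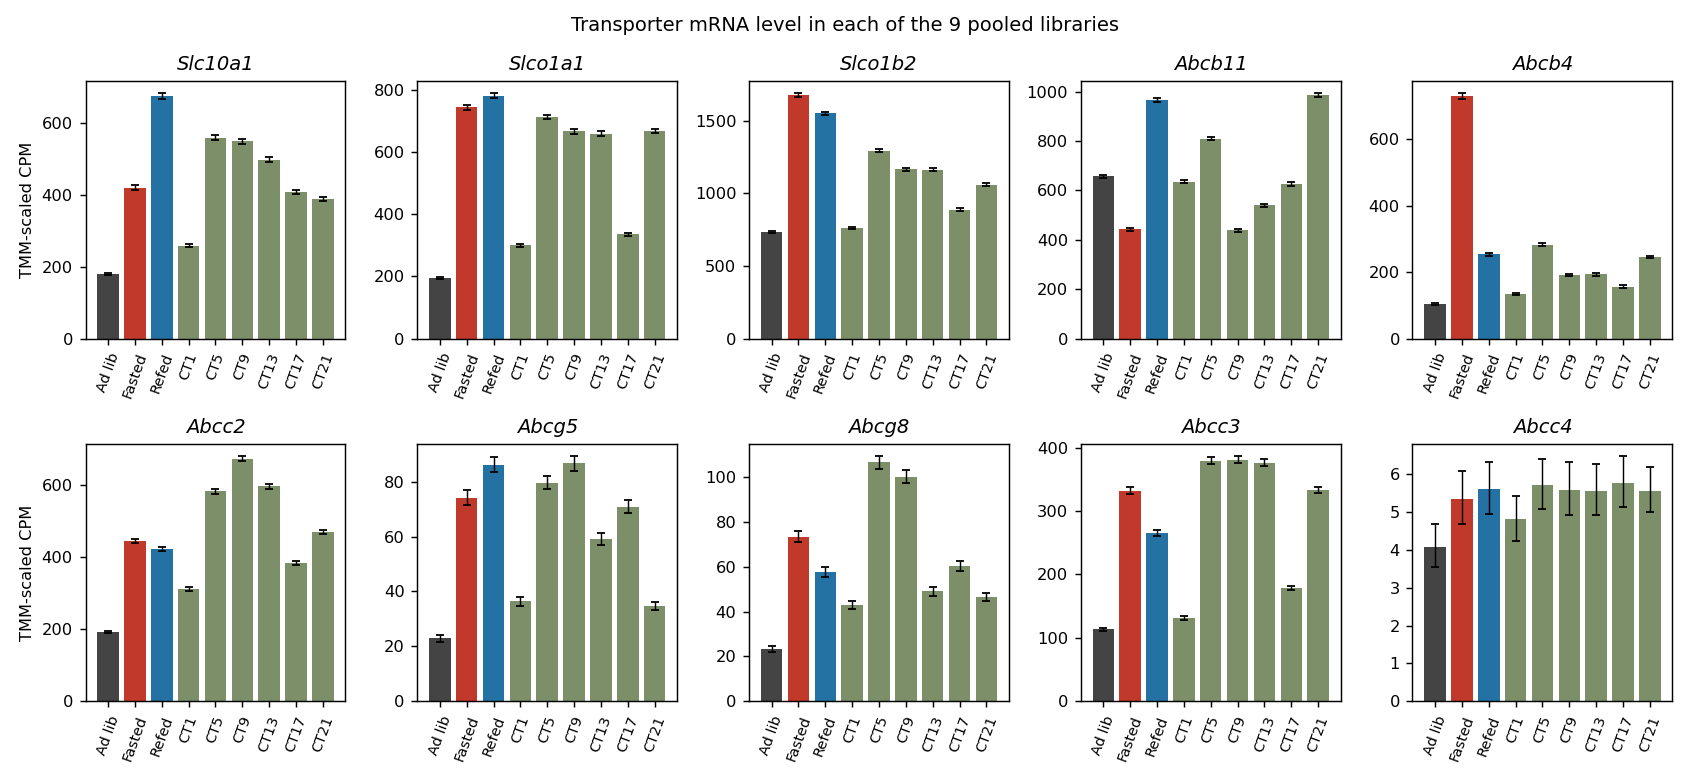
TMM-scaled CPM of each transporter (y axis, 1 scale per gene) in the 9 libraries (x axis: ad libitum in grey, fasted in red, refed in blue, the 6 DD times in green). Bars are single pooled libraries and whiskers are 95% counting intervals; the ad libitum bar is the lowest of the 9 for every gene but Abcb11.

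The sinusoidal uptake carriers were lowest in the ad libitum library and 2.12-fold to 4.02-fold higher in the fasted and refed libraries. Slc10a1 (chr12:80953185-80968705, minus strand, 5 exons), which encodes NTCP, stood at 179.9 CPM in the ad libitum, 419.8 in the fasted and 675 CPM in the refed library. Over the 6 DD libraries, in the order CT1 to CT21, it measured 258, 559, 548, 498, 408 and 388 CPM. The refed value lay above every DD library and the ad libitum value below every one. Against the ad libitum library its log2 ratio was 1.22 (95% counting interval 1.19 to 1.26) in the fasted and 1.91 (1.87 to 1.94) in the refed library, and from fasted to refed it was 0.69 (0.66 to 0.71). The files hold a second Slc10a1 transcript, whose count was 68.1% to 75.4% of the kept one over the 9 libraries, so both gave the same pattern. How shared reads were counted is not stated, so these counts may not be independent.

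Slco1a1 (chr6:141907281-141946962, minus strand, 14 exons) encodes OATP1A1, an organic anion transporting polypeptide that also carries bile acids. Its level was 194 CPM in the ad libitum, 746 in the fasted and 782 in the refed library, and 301, 713, 667, 659.9, 336 and 668 CPM over the DD series from CT1 to CT21. Ad libitum, CT1 and CT17 were the low libraries and the other 6 lay close together between 659.9 and 782 CPM. The log2 ratio to ad libitum was 1.94 (1.91 to 1.97) fasted and 2.01 (1.98 to 2.04) refed, and refed differed from fasted by only 0.069 (0.048 to 0.091).

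Slco1b2 (chr6:141629452-141686646, plus strand, 16 exons) encodes OATP1B2, the rodent counterpart of the human hepatic OATP1B carriers. It was measured at 732 CPM ad libitum, 1678 fasted and 1553 refed, and at 761, 1296, 1167, 1165, 889 and 1061 CPM in DD from CT1 to CT21. The fasted and refed libraries held more of it than any DD library. Its log2 ratio to ad libitum was 1.20 (1.18 to 1.22) fasted and 1.09 (1.07 to 1.10) refed. From fasted to refed it changed by -0.11 (-0.13 to -0.097), a sign that turned with the scaling (-0.16 to 0.20 over the scalings tried).

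Abcb11 (chr2:69238282-69342616, minus strand, 28 exons), the bile salt export pump, was with TMM scaling the 1 member that was lower in the fasted than in the ad libitum library. It measured 657 CPM ad libitum, 442 fasted and 965 refed, and 635, 809.8, 438, 539, 625 and 985 CPM at CT1 to CT21. The fasted value was near the lowest and the refed value near the highest DD library, and the ad libitum value lay in the middle of the DD range. The log2 ratio was -0.57 (-0.60 to -0.55) for fasted and 0.56 (0.54 to 0.58) for refed against ad libitum, and 1.13 (1.10 to 1.15) for refed against fasted. Over the scalings tried the fasted ratio stayed between -1.47 and -0.39, while the ratio of refed to ad libitum was between -0.030 and 0.76, below 0 only when levels were scaled to the summed hepatocyte markers. Its gene shares 136 exon bases with the antisense transcript Gm13613, and whether the counting used strand is not stated in the sources used here.

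Abcb4 (chr5:8893614-8959226, plus strand, 28 exons) encodes MDR2, the flippase that delivers phosphatidylcholine to bile. It had the largest fasting ratio of the 10. Its level was 104 CPM ad libitum, 730.5 fasted and 254 refed, and 135, 283, 192, 193, 156 and 246 CPM at CT1 to CT21. The fasted library thus stood well above all others, the next being CT5, and the refed library was within the DD range. Fasted was 7.06-fold above ad libitum (log2 2.82, 2.78 to 2.86), refed 2.45-fold (log2 1.29, 1.25 to 1.34), and refed against fasted was -1.53 (-1.56 to -1.50) in log2. Abcb4 was also the 1 member more than 2-fold above the median of the DD libraries after the fast, with a log2 ratio of 1.92. Reads of the related Abcb1a could be shared with it, though Abcb1a itself reached at most 6.12 CPM.

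Since both canalicular transporters were counted in the same library, their ratio does not depend on scaling. Per kb, Abcb4 was 0.189 of Abcb11 in the ad libitum library (95% counting interval 0.184 to 0.195), 1.98 in the fasted (1.95 to 2.02) and 0.315 in the refed library (0.309 to 0.322). In the 6 DD libraries the ratio was between 0.254 and 0.525. The phosphatidylcholine flippase transcript outnumbered that of the bile salt pump only in the fasted library. Uptake against export moved as well: Slc10a1 was 0.80-fold Abcb11 in the ad libitum library, 2.78-fold in the fasted and 2.04-fold in the refed, and between 1.15-fold at CT21 and 3.66-fold at CT9 in DD.

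Abcc2 (chr19:43782308-43838332, plus strand, 32 exons) encodes MRP2, the canalicular pump for bilirubin glucuronides and other conjugates. It was at 193 CPM ad libitum, 446 fasted and 422 refed, and at 312, 583, 674, 597, 384 and 470.3 CPM in DD. Both the fasted and the refed value were within the DD range and the ad libitum value below it. Its log2 ratio to ad libitum was 1.21 (1.18 to 1.25) fasted and 1.13 (1.10 to 1.17) refed. Refed and fasted differed by -0.078 (-0.11 to -0.050), whose sign also turned with the scaling (-0.13 to 0.24).

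The sterol half-transporters Abcg5 (chr17:84658174-84683011, minus strand, 13 exons) and Abcg8 (chr17:84676302-84700333, plus strand, 13 exons) form a heterodimer that secretes cholesterol and plant sterols into bile. They are transcribed away from each other with 109 bases between the start of Abcg5 and that of the main Abcg8 transcript, the interval printed above, which lies in an intron of a longer Abcg8 model. Abcg5 measured 22.96 CPM ad libitum, 74.2 fasted and 86.1 refed, and 36.4, 79.6, 86.6, 59.0, 70.8 and 34.6 CPM in DD. Abcg8 measured 23.3 CPM ad libitum, 73.5 fasted and 57.7 refed, and 43.1, 107, 100.2, 49.0, 60.3 and 46.5 CPM in DD. Both were lowest in the ad libitum library and both were high at CT5 and CT9. The log2 ratios of fasted to ad libitum were nearly equal, 1.69 (1.60 to 1.79) for Abcg5 and 1.66 (1.56 to 1.76) for Abcg8, while those of refed to ad libitum were 1.91 (1.81 to 2.00) and 1.31 (1.21 to 1.41). From fasted to refed the pair parted, with 0.22 (0.15 to 0.28) for Abcg5 and -0.35 (-0.42 to -0.28) for Abcg8.

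Within a library the 2 partners did not keep a fixed proportion. Abcg8 per kb was 0.650 of Abcg5 in the ad libitum library (0.600 to 0.705) and 0.636 in the fasted (0.605 to 0.668), whose intervals overlap. In the refed library it was 0.430 (0.409 to 0.451), the lowest of the 9. From CT1 to CT21 the 6 DD ratios were 0.760, 0.860, 0.742, 0.533, 0.546 and 0.862. Relative to its partner Abcg8 was thus most abundant at CT5 and CT21, whose intervals overlap, and less abundant at CT13, CT17 and after refeeding, by more than the counting error. The Abcg5 model shares 40 exon bases on the opposite strand with other Abcg8 models, but not with the main Abcg8 model used here. A small part of the Abcg5 count may therefore come from Abcg8 transcripts.

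**Figure D2:**
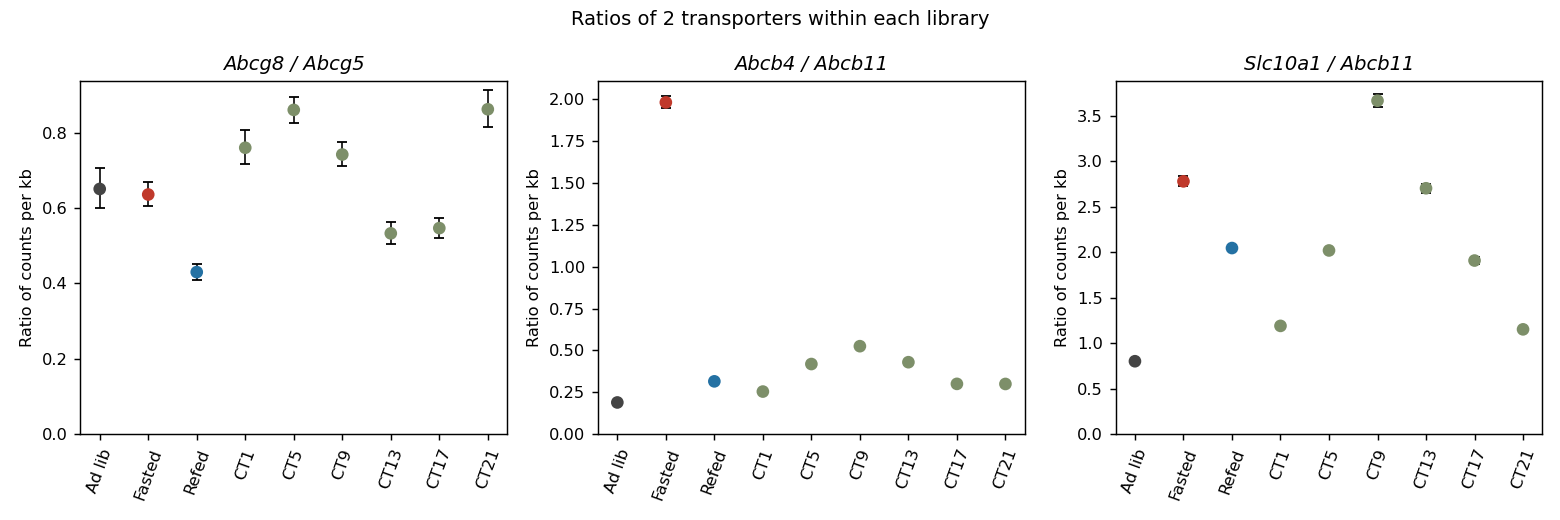
Ratio of counts per kb of Abcg8 to Abcg5, of Abcb4 to Abcb11 and of Slc10a1 to Abcb11 (y axes) in each of the 9 libraries (x axis, colours as for the levels), with 95% counting intervals. The fasted library stands alone at 1.98 for Abcb4 to Abcb11, and the refed library is lowest, at 0.430, for Abcg8 to Abcg5.

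At the basolateral membrane, Abcc3 (chr11:94343295-94393017, minus strand, 31 exons) encodes MRP3, which exports glucuronides and bile acids back to blood. It was at 113 CPM ad libitum, 332 fasted and 266 refed, and at 131, 379, 381, 376, 179 and 334 CPM in DD. As for Slco1a1, the ad libitum, CT1 and CT17 libraries were the low ones and lay apart from the other 6. Its log2 ratio to ad libitum was 1.55 (1.51 to 1.60) fasted and 1.23 (1.19 to 1.28) refed, and refed to fasted was -0.32 (-0.35 to -0.28).

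Abcc4 (chr14:118482692-118707856, minus strand, 31 exons) encodes MRP4, a basolateral exporter of bile acids and cyclic nucleotides that is scarce in normal liver. It had only 211 to 347 counts per library. Its level was 4.09 CPM ad libitum, 5.35 fasted and 5.60 refed, and 4.81, 5.71, 5.59, 5.56, 5.77 and 5.57 CPM in DD from CT1 to CT21. Counting intervals of most of these libraries overlap. The log2 ratio to ad libitum was 0.39 (0.11 to 0.66) fasted and 0.45 (0.19 to 0.72) refed, and from fasted to refed it was 0.067 with an interval that spans 0 (-0.19 to 0.33). A difference between fasted and refed was not detectable at this depth. Scaled to the summed hepatocyte markers, both ratios to ad libitum fell below 0, to -0.51 fasted and -0.13 refed.

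**Figure D3:**
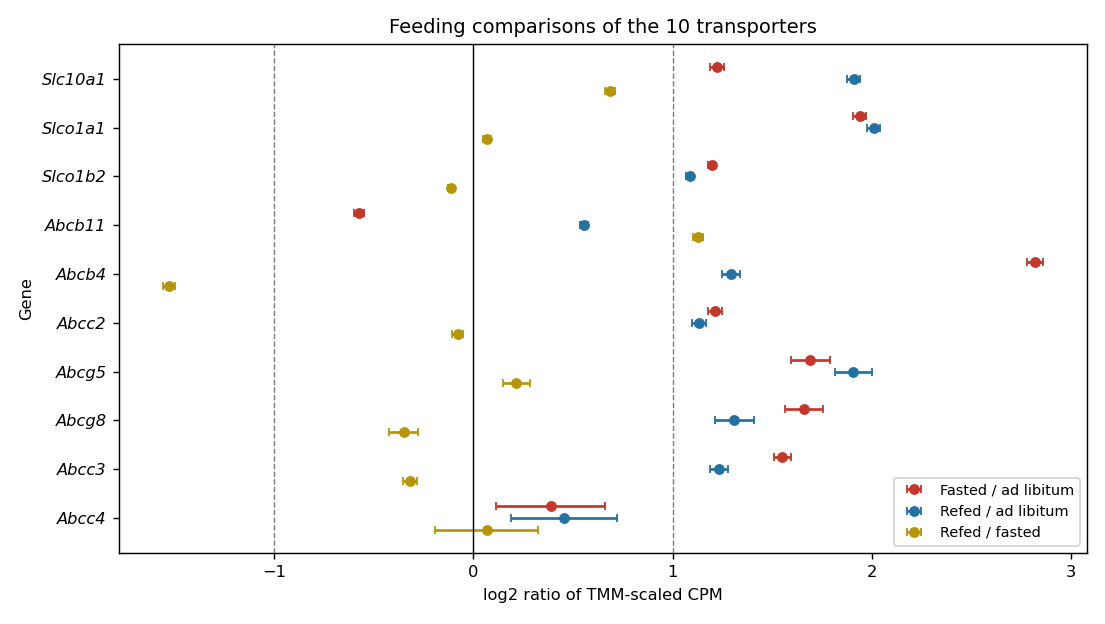
log2 ratios of TMM-scaled CPM (x axis) for each transporter (y axis), fasted to ad libitum in red, refed to ad libitum in blue and refed to fasted in yellow. Points are ratios of single libraries, whiskers 95% counting intervals and dashed lines the 2-fold limits; Abcb4 is the farthest to the right after fasting and Abcb11 alone is to the left of 0 there.

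Counted together, 8 of the 10 members were at least 2-fold higher in the fasted than in the ad libitum library and 0 were at least 2-fold lower, where 11.1% of the 14412 genes with at least 10 counts were higher and 9.47% lower. The exceptions were Abcb11 and Abcc4. The median log2 ratio was 1.39 over the members and -0.053 over all genes. Scaling mattered for 6 of the 8. With unscaled counts Slc10a1 (0.98), Slco1b2 (0.95) and Abcc2 (0.97) fell short of the limit, and scaled to the summed hepatocyte markers these and Abcc3 (0.65), Abcg5 (0.79) and Abcg8 (0.76) did so. In the refed library the same 8 members were at least 2-fold above ad libitum (7.71% of 14026 genes higher, 7.82% lower; median 1.26 for the members and -0.025 for all genes). Both comparisons use the same ad libitum library, so their counts are not separate evidence. The harvest time of the ad libitum livers is not stated, and clock genes differed from that library too. Of 15 core clock genes, 6 were at least 2-fold higher and 3 lower in the fasted library. In the refed library 7 were higher and 5 lower than ad libitum. Feeding and time of day therefore cannot be told apart in these comparisons.

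Between the refed and the fasted library 1 member was at least 2-fold higher, Abcb11, and 1 at least 2-fold lower, Abcb4 (6.21% of 14321 genes higher, 8.39% lower). The remaining 8 members differed by a log2 ratio of -0.35 (Abcg8) to 0.69 (Slc10a1). This comparison does not involve any of the 3 libraries with high acute phase transcripts. The harvest time of the refed livers is not stated, and clock genes differed between the 2 libraries. Of 15 core clock genes, 7 were at least 2-fold higher and 4 at least 2-fold lower in the refed library. Feeding and time of day therefore cannot be told apart in this comparison.

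The 6 DD libraries give a spread against which the feeding libraries can be placed. The study housed its mice in a 12-h LD cycle and describes DD only for the circadian part. Feeding, lighting and time of day thus cannot be told apart when feeding libraries are set against DD libraries. In the ad libitum library 9 of the 10 members, all but Abcb11, lay below the lowest DD library (21.8% of 14659 genes did so) and 0 above the highest (19.9%). In the fasted library 3 members lay above the highest DD library, Slco1a1, Slco1b2 and Abcb4 (21.6% of genes), and 0 below the lowest (27.8%). In the refed library 3 lay above, Slc10a1, Slco1a1 and Slco1b2 (20.9%), and 0 below (21%). With the median of the 6 DD libraries in place of the ad libitum library, 1 member was at least 2-fold higher after the fast (7.64% of 14848 genes) and 0 after refeeding (2.86% of 14621), and 0 were lower in either (5.76% and 3.37% of genes). On that comparison the ratios of Slc10a1, Abcc2, Abcc3 and Abcc4 in the fasted library were -0.10, -0.23, -0.094 and -0.061.

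The 2-fold counts thus depended on the ad libitum library, in which acute phase transcripts were highest. Most hepatocyte markers were lower there too: 6 of 10, Cps1 (log2 1.79) foremost, were at least 2-fold higher after the fast and 4 after refeeding, while Hnf4a went the other way (-0.39 and -0.77), with a summed level of 67470 CPM ad libitum, 126076 fasted and 101262 refed. Fewer cells of a type and less RNA per cell cannot be told apart in bulk tissue. Most of the summed marker level was Alb (32487 CPM ad libitum, 67973 fasted and 53009.5 refed) and Apob (18633, 23416 and 18984 CPM), so a scaling to it rests largely on these 2 genes. Relative to this summed level (a scaling chosen after seeing the data), 2 members remained at least 2-fold higher after the fast, Slco1a1 at 1.04 and Abcb4 at 1.92, where 4.54% of genes did so. Abcb11 was at least 2-fold lower at -1.47, as were 47.1% of genes on that scale. After refeeding 3 members remained higher and 0 were lower (3.36% and 25.2% of genes). Cholangiocyte markers summed to 569 CPM ad libitum, 86.5 fasted and 168.8 refed. Most of that sum was Spp1 and the bile acid carrier Slc10a2, while the defining marker Krt19 was at 0.988, 1.03 and 2.52 CPM. Their part in the transporter ratios was not tested.

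Over the DD series 8 of the 10 members had a peak at least 2-fold above the lowest time (32.7% of 14570 genes), all but Slco1b2 and Abcc4. The median log2 ratio of peak to nadir was 1.14 for the members and 0.71 for all genes. The lowest DD library was CT1 for 8 members (21.7% of 14948 genes), and the highest was CT5 or CT9 for 8 (28.1%). Abcb11 departed from this order: it was lowest at CT9 and highest at CT21, with a log2 ratio of 1.17 (1.15 to 1.19). The largest ratio was that of Abcc3, 1.54 (1.499 to 1.58) from CT1 to CT9. Abcg5 spanned 34.6 CPM at CT21 to 86.6 CPM at CT9, a log2 ratio of 1.32 (1.25 to 1.40), and Abcg8 spanned 1.31 from CT1 to CT5 (1.24 to 1.38). Abcc4 spanned only 0.26 (0.015 to 0.51).

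**Figure D4:**
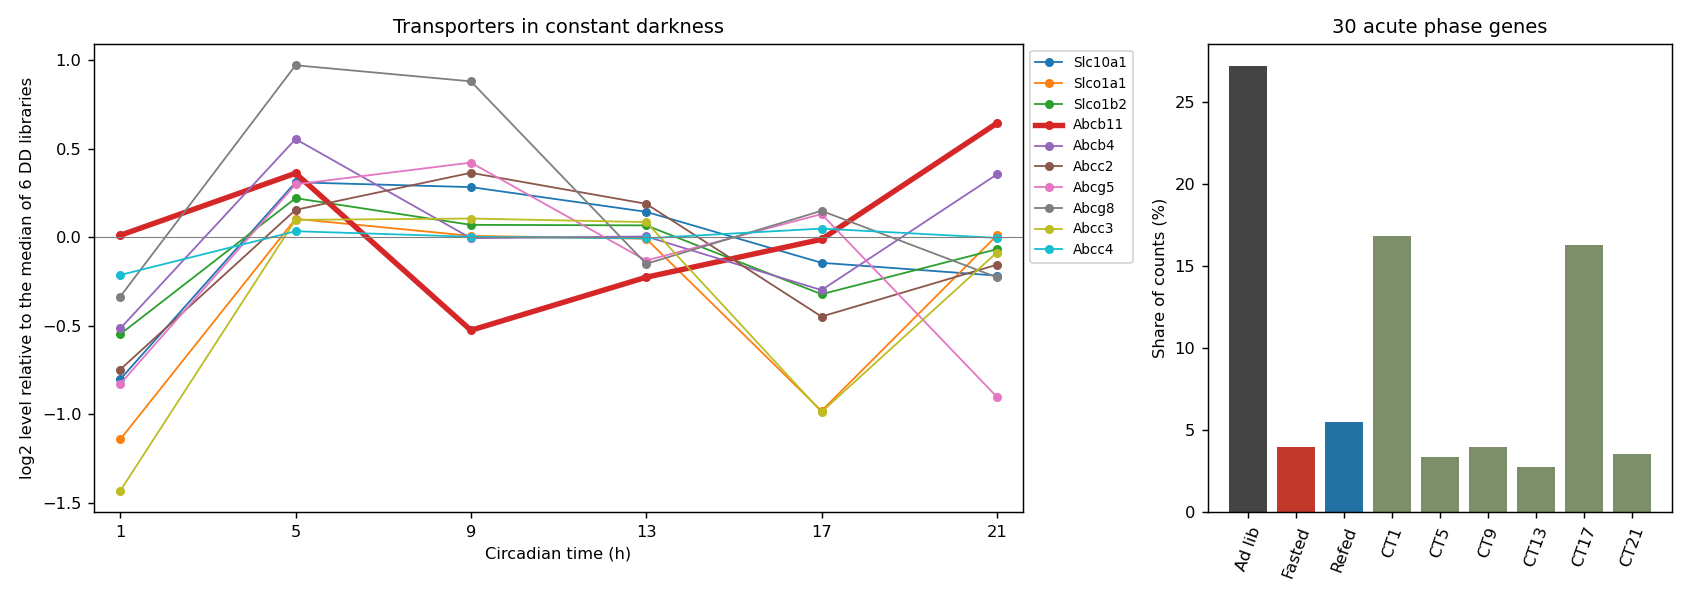
Left, log2 level of each transporter relative to its median over the 6 DD libraries (y axis) against circadian time in h (x axis), 1 pooled library per point, with Abcb11 as the thick line. Right, share of all counts (%) taken by 30 acute phase genes in each library; CT1 and CT17, the lowest 2 points on the left for 5 of the 10 transporters, have shares of 16.8% and 16.3% against 2.72% to 3.98% at the other DD times.

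CT1 and CT17 were the lowest pair of DD libraries for 5 members, Slco1a1, Slco1b2, Abcc2, Abcc3 and Abcb4 (20.1% of genes). For the same 5, ad libitum, CT1 and CT17 were the lowest 3 of all 9 libraries (5% of genes). Without the CT1 library 5 members remained at least 2-fold from peak to nadir, Abcb11, Slco1a1, Abcc3, Abcg5 and Abcg8 (27.8% of 14372 genes). Without CT1 and CT17 (chosen after seeing the data) 3 remained, Abcb11 at 1.17, Abcg5 at 1.32 and Abcg8 at 1.20 (18% of 14163 genes). Slco1a1 and Abcc3 then spanned only 0.11 and 0.19. Abcb11 and Abcg5 had their extremes at CT9 and CT21, so that their ratios could not change with this omission. That of Abcg8 changed little, and those of the other members were smaller.

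A 24-h rhythm was tested over the 6 DD libraries by fitting a cosine and a sine term in edgeR (quasi-likelihood F test). None of the 10 members passed an adjusted p of 0.05, and 0 of 14021 genes did (0%). The smallest edgeR adjusted p of any gene was 0.128. Core clock genes were thus not called either, although 14 of 15 had a DD peak at least 2-fold above their lowest time (median log2 3.46). With 6 libraries the 0 calls of this edgeR test therefore say little about rhythm. At an unadjusted p under 0.05 there were 1224 genes. DESeq2's likelihood ratio test called 372 genes and 0 members, and limma-voom and an exact permutation test, which used all 720 orders of these libraries, called 0 genes. With all 6 libraries the sterol pair had the largest fitted amplitudes: Abcg5 had a log2 amplitude of 0.61 (SE 0.19) with its peak at 10.1 h (unadjusted p = 0.0455, edgeR adjusted p = 0.561), and Abcg8 had 0.57 (SE 0.19) with a peak at 7.77 h (edgeR adjusted p = 0.576). Abcb11 had an amplitude of 0.42 (SE 0.18) and a fitted peak at 22.9 h (edgeR adjusted p = 0.655). The order of amplitudes rested on single libraries: without CT21 Abcc3 had the largest (1.04), followed by Slco1a1 (0.86) and Abcc2 (0.69), and without CT1 Abcb11 did (0.62). For the other 7 the amplitudes with all libraries were 0.071 (Abcc4) to 0.42 (Abcc2), and their edgeR adjusted p was between 0.634 and 0.930. In the exact permutation test, whose smallest possible p is 0.0167 with 60 distinct orders, the members' p ranged from 0.20 to 0.80. That test could pass the adjusted limit only if a large share of all genes reached its smallest p. Its 0 calls therefore say little about rhythm.

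Set against the summed level of the 30 acute phase genes, the log2 level of Abcb11 over the 9 libraries had a Pearson r of 0.0067, and the other members had r from -0.98 (Abcc3) and -0.94 (Slco1a1) to -0.56 (Abcg5). Among the 6 DD libraries r was -0.094 for Abcb11, -0.98 for Slco1a1, -0.96 for Abcc3 and -0.21 for Abcg5. These are descriptions, with no test, over points that share scaling and depth, and 3 libraries hold most of the range of the acute phase genes. The part of this difference between libraries in the transporter levels was not tested.

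Over the 9 libraries the Pearson r of log2 CPM between Abcb11 and the other 9 members was -0.22 to 0.085, and all 36 pairs of those 9 had r above 0, with a median of 0.79, from 0.48 (Abcb4 with Abcc2) to 0.94 (Slco1a1 with Abcc3). Without the ad libitum, CT1 and CT17 libraries (chosen after seeing the data) the median over these pairs was 0.18, with 24 of the 36 above 0, and r with Abcb11 ranged from -0.52 to 0.54. The likeness of the members over the 9 libraries thus rested on those 3 libraries. Among 11001 genes with a mean of at least 100 counts, the gene most like a member over the 9 libraries was Psmg2 for Abcb11 (0.96), Slc2a2, the hepatic glucose carrier GLUT2, for Slc10a1 (0.99) and Rhot1 for Slco1b2 (0.97). It was Lrch1 for Abcc2 (0.98), Ces1e for Abcc3 (0.98), Dcxr for Abcc4 (0.99) and Slc5a6 for Abcg8 (0.95). In the 6 libraries without ad libitum, CT1 and CT17, r was 0.96 for Psmg2 and Rhot1, 0.92 for Slc2a2 and Slc5a6, 0.899 for Lrch1, 0.71 for Ces1e and 0.56 for Dcxr, and none of these 7 was then the gene most like its member.

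Of 7 other uptake carriers with enough counts, 1 was at least 2-fold higher in the fasted library and 1 lower, with a median log2 ratio of 0.089. The higher one was Slco1a4, a close paralog of Slco1a1, which measured 4.84 CPM ad libitum, 133 fasted and 39.96 refed (log2 4.78 and 3.04 against ad libitum). The lower one was Slc22a7, the organic anion transporter OAT2, at 18.8 CPM ad libitum and 7.90 fasted (log2 -1.26, -1.44 to -1.08). Because the Slco1a genes are similar in sequence, how reads were divided between them is uncertain, but Slco1a4 had far fewer counts than Slco1a1 in every library.

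Of 10 other exporters and flippases, 2 were at least 2-fold higher after the fast, Abcg2 (44.8 to 138 CPM, log2 1.62) and the cation exporter Slc47a1 (34.4 to 86.1 CPM, log2 1.32). Another 2 were lower: Atp8b1, the canalicular aminophospholipid flippase, went from 172 to 47.9 CPM (log2 -1.84, -1.91 to -1.77), and Slc51b, a subunit of the basolateral bile acid exporter, was near the detection limit at 0.620 and 0.115 CPM. After refeeding 3 were higher than ad libitum and 0 lower. In cholesterol handling, 4 of 10 genes were at least 2-fold lower after the fast, among them Stard4 (-1.88), Lrp1 (-1.71) and Abca1 (-1.59), with a median of -0.68 for the list. Abca1 loads cholesterol onto lipoproteins at the sinusoidal side. Relative to the ad libitum library it moved from 889 to 295 CPM, while the canalicular Abcg5 and Abcg8 moved the other way. The rise of that pair depended on the ad libitum library. The single gene at least 2-fold higher was Npc1l1, at 0.0581 and 0.230 CPM.

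Among 15 regulators of transporter genes, 3 were at least 2-fold higher in the fasted than in the ad libitum library, Esrra (1.21), Ppara (1.20) and Nr1i3 (1.16), and 1 lower, Ahr (-1.25). The bile acid receptor FXR (Nr1h4) measured 91.2 CPM ad libitum, 143 fasted and 122 refed, and its target SHP (Nr0b2) 41.8, 34.8 and 69.8 CPM. In DD Nr0b2 measured 56.1, 31.6, 45.8, 8.35, 10.8 and 60.3 CPM from CT1 to CT21. The oxysterol receptor LXRα (Nr1h3) stayed between 89.5 and 119 CPM in all 9 libraries. Of 10 genes for canalicular trafficking and anchoring, 0 were at least 2-fold higher and 2 lower after the fast, Slc9a3r1 (-1.84) and Ezr (-1.14). Of 10 bile acid enzymes, 4 were at least 2-fold higher after the fast and 6 after refeeding, and 0 were lower in either. Cyp7a1, which catalyses the first step of the classic bile acid pathway, measured 2.96 CPM ad libitum, 70.7 fasted and 109 refed, and Cyp8b1, the sterol hydroxylase that directs synthesis to cholic acid, 39.3, 1463 and 344 CPM. In the fasted library their log2 ratios to ad libitum were 4.58 and 5.22, above those of all 10 transporters. Against the DD libraries Cyp7a1 was not higher after the fast. Its fasted level of 70.7 CPM was close to that at CT1 (71.4 CPM), the hour at which the fast ended, and below the other DD libraries (up to 469.7 CPM). That of Cyp8b1 lay above all 6 (233 to 712 CPM).

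Set against the median of CT5, CT9, CT13 and CT21 instead of the ad libitum library (chosen after seeing the data), 1 of the 10 members was at least 2-fold higher after the fast and 0 lower (8.43% and 6.56% of 14593 genes), and 0 after refeeding in either direction (3.45% and 3.98% of genes). The companion lists were set against the same median for the fasted library. That median leaves out CT1, whose hour matches the end of the fast at ZT1. Among the uptake carriers Slco1a4 was still higher (1.72) and Slc22a7 lower (-1.60), with 2 lower in all. Of the 10 exporters 0 were higher and 1 lower, with Abcg2 at 0.27, Slc47a1 at -0.32 and Atp8b1 at -0.99. In cholesterol handling 1 was higher and 3 lower, with Stard4 at -3.13, Lrp1 at -1.12 and Abca1 at -0.96. The members Abcg5 and Abcg8, at 0.11 and 0.069, did not show the rise seen against the ad libitum library. No regulator passed in either direction, with Esrra at 0.16, Ppara at -0.062, Nr1i3 at 0.25 and Ahr at -0.46. Of the trafficking genes 1 was lower, Slc9a3r1 (-1.38), and Ezr was at -0.39. Of the bile acid enzymes 2 were higher and 3 lower, with Cyp8b1 at 2.04 and Cyp7a1 at -2.08.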

How the data were processed

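The authors pooled livers, made polyA+ libraries, sequenced paired reads of 150 bases and mapped them to GRCm38 (also named mm10). TopHat2, version 2.0.13, appears in the processing notes of the submitters. The deposited files hold raw whole-number counts for 27457 RefSeq transcripts per library, 1 library per condition. The sources used here do not state the counting program, its use of strand or its handling of shared reads. Transcripts were named from RefSeq GRCm38.p6 (26390) and GENCODE (115). The 952 unnamed transcripts (0.346% to 0.817% of a library's counts) were left out, and the transcript with the highest total stood for its gene. Members and gene lists were chosen with earlier results of these data known. The text names all 10 members and, from each other list, at most the 3 largest rises and falls of a comparison together with the FXR, SHP and LXR genes and 2 bile acid enzymes. The hepatocyte markers Alb and Apob, markers of other cells and organs (Fabp2, Spp1, Slc10a2, Krt19, Lcn2) and the paralog Abcb1a were named after their values were seen. A few genes that these rules would name are not reported here.

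Scaling used TMM over all 9 libraries, in edgeR 4.0.16 under R 4.3.3. Ratios between libraries have exact 95% binomial counting intervals and were counted at a 2-fold limit over genes with at least 10 counts in a library of the comparison. With 1 library per condition no test between conditions was made. For the 24-h rhythm the quasi-likelihood F test of edgeR was used (3 residual degrees of freedom, Benjamini-Hochberg adjustment at 0.05, checked on simulated data), and the SE of an amplitude was calculated back from its F statistic. Alternatives were other scalings, summed transcripts, no filter, a 1.5-fold limit, other comparison libraries, each DD library left out, DESeq2 1.42.0, limma 3.58.1 and an exact permutation test. The depth of 43485652 to 59624294 counts gives narrow counting intervals for all members but Abcc4, and counts of reads without molecular identifiers are not independent molecules. Python 3.11.15, numpy 2.4.6, pandas 2.3.3, scipy 1.17.1 and matplotlib 3.10.9 were used.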

Additional observations from a re-analysis of the deposited data

How the results depend on the processing

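No paired analysis was possible because each condition has 1 library and the labels give no shared replicate numbers. For the fasted against the ad libitum library, the members at least 2-fold higher fell from 8 to 5 with raw counts, to 1 against the median of the 6 DD libraries and to 1 against the median of CT5, CT9, CT13 and CT21. Scaled to the summed hepatocyte markers they were 2, with 1 lower. All genes higher numbered 1243 with raw counts, 1135 against the DD median, 1230 against that of the 4 times and 654 with marker scaling. All genes lower numbered 2159, 855, 958 and 6786 in the same order. For refed against ad libitum, members higher were 0 against either DD median and 3 with marker scaling. All genes were 418 higher and 493 lower against the DD median, 492 and 568 against that of the 4 times, and 471 and 3538 with marker scaling. For refed against fasted, 1818 genes were lower without a filter, 2 members were higher at a 1.5-fold limit, and with marker scaling 2 members and 1756 genes were higher. The last scaling, the median of 4 DD times and the omission of CT1 with CT17, alone or with ad libitum, were chosen after seeing the data.

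Ratios whose sign turned in the fasted library were Slc10a1 (-0.10), Abcc2 (-0.23), Abcc3 (-0.094) and Abcc4 (-0.061) against the DD median, and -0.32, -0.40, -0.19 and -0.061 against the 4 times. With marker scaling that of Abcc4 (-0.51) turned. In the refed library they were Abcc2 (-0.31) and Abcc3 (-0.41), and against the 4 times Abcc2 (-0.48), Abcc3 (-0.51) and Abcg8 (-0.28), and with marker scaling Abcb11 (-0.030) and Abcc4 (-0.13). From fasted to refed, raw counts and marker scaling turned Slco1b2 (0.028 and 0.20) and Abcc2 (0.062 and 0.24). The comparison libraries differ in acute phase transcripts, and the cause was not tested.

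In DD, leaving out each library in turn gave 5 to 8 members past 2-fold (27.8% of 14372 genes without CT1). Without CT1 and CT17 there were 3 members and 2544 genes (18% of 14163). Marker scaling gave 5 members. Member counts given here without a count of all genes cannot be set against that background. Rhythmic genes numbered 0 to 37 with each library left out, 1 without CT1 and 37 without CT21, and 372 with DESeq2, with 0 members in each of these. Total counts in place of TMM moved the median of all genes from -0.053 to 0.13 (fasted) and from -0.025 to 0.18 (refed), and raw counts moved it to -0.30 and -0.13. Of the ratios of single members over all these alternatives, 156 stayed within their counting interval, 183 moved outside it without such a turn of a 2-fold ratio, and 11 turned. Of the counts 123 stayed within 1.5 times the reported count and 29 did not. Depth limits only Abcc4 among the members.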
